A study of Rattus norvegicus with 28 samples.

Results

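The transcripts of 4 secreted mediators, Vgf (ENSRNOG00000001416), Ccl2 (ENSRNOG00000007159), Reg3b (ENSRNOG00000006151) and Crh (ENSRNOG00000012703), were examined in the dorsal root ganglion (DRG) of rats with inflammatory pain. They are 4 of the 32754 Ensembl genes in the count table and were chosen by name, as secreted factors that the study discusses in connection with pain. The RNA-seq libraries analysed here are 2 CFA libraries, each from the pooled ipsilateral lumbar DRGs of 1 adult male Sprague-Dawley rat, 12 weeks old, taken 48 h after complete Freund's adjuvant (CFA), an oil emulsion that inflames tissue, was injected into the hind paw. Only rats that had met the study's criterion of mechanical hypersensitivity entered it. RNA-seq of naïve rats and of rats with chronic constriction injury of the sciatic nerve was not analysed here, so the values describe the inflamed state alone and no change after CFA was tested. The libraries answer how abundant each transcript was in these ganglia and how closely the 2 rats matched.

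The DRG holds the cell bodies of the sensory neurons that serve skin, muscle and viscera, wrapped by satellite glia and mixed with Schwann cells, vessels, fibroblasts and leukocytes. Sensory neurons store peptides in dense-core vesicles, where convertases cut the precursor proteins into active peptides that are released on activity. VGF is a granin-like precursor of such peptides that is induced by nerve growth factor and is known for peptides that affect pain sensitivity. Corticotropin-releasing hormone, made from Crh, is the hypothalamic peptide that starts the stress response, and it acts through its own G protein-coupled receptors. CCL2 is a chemokine that attracts monocytes through the receptor CCR2 and can be made by injured sensory neurons. REG3B is a secreted lectin of the regenerating islet-derived family, known from the inflamed pancreas and gut and from injured sensory neurons.

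The sequences upstream of these genes show what surrounds their start sites, and they are given for the members found in the RefSeq promoter table, which has the build GRCr8. The windows of Vgf and Reg3b were matched, 2 of the 4 members, together with that of Reg3a, the family member of Reg3b that is also measured below. Each line gives the 250 bases before the annotated start, 5′ to 3′ on the strand of the gene, for Vgf at chr12:25277021-25277270 (minus strand), for Reg3b at chr4:112419526-112419775 (plus strand) and for Reg3a at chr4:112430147-112430396 (plus strand, the upstream one of its 2 windows). Capitals mark matches, on either strand, to the TATA box TATAAA, the cAMP response element TGACGTCA, the AP-1 site TGANTCA, the GC box GGGCGG, the STAT site TTCNNNGAA and the NF-kB site.
Vgf: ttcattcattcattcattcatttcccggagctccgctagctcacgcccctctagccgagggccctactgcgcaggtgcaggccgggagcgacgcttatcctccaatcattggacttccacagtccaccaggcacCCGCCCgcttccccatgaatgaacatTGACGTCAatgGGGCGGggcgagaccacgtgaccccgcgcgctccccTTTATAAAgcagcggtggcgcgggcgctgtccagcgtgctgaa
Reg3b: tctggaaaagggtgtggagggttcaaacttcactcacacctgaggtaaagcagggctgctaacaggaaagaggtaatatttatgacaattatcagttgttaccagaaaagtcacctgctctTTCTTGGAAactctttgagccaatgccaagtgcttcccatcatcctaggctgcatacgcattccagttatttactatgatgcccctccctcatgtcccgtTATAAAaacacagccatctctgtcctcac
Reg3a: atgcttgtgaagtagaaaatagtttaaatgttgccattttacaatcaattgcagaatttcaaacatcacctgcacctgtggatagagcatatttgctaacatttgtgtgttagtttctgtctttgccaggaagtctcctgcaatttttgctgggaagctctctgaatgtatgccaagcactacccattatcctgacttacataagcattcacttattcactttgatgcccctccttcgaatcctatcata

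The Vgf window held the complete cAMP response element, which is its own reverse complement, with its first base at -90 from the start. Of the 33469 promoter windows in the table, 1.83% held this element, counted over 250 bases before and 50 after the start. Vgf also held a TATA box at -41, which overlaps a match on the other strand at -43, and GC boxes at -79 and, on the other strand, at -116. The Reg3b window held a TATA box at -29 and a STAT site, with the match TTCTTGGAA, at -129. TATA boxes were found in 14.2% of all windows, GC boxes in 33.1% and STAT sites in 8.87%. No match to these 6 motifs was found in the Reg3a windows, and the AP-1 and NF-kB letters, present in 7.33% and 1.53% of all windows, were not in those of Vgf or Reg3b. The 250 upstream bases had a GC content of 61.6% for Vgf and 44.8% for Reg3b, against a median of 51.2% over all windows. The printed sequences of Reg3b and Reg3a had 148 identical bases in 277 alignment columns (53.4%), compared with 39.8% for Vgf and Reg3b. A match describes the letters of the window and was not tied to binding or to the RNA level in these data.

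The libraries differed in depth, with 10.5 M counts on genes in CFA replicate 1 and 28.8 M in CFA replicate 2, a ratio of 2.74. A level of 1 CPM, that is 1 count per 1000000 counts of the library, rested on 10.5 counts in replicate 1 and 28.8 in replicate 2, so replicate 2 measured low genes with less counting error. Of the 21122 genes with a count in either library, 15115 reached 10 counts in each library. The tissue was checked by markers, which were drawn from the study's list of genes that differ in both pain models. Such a list favours genes with counts in these libraries, so detection alone is a weak check. The 6 nociceptor markers were present at 107 to 2022 CPM and the 3 neurofilament genes of large neurons at 7708 to 11580 CPM. Markers of Schwann cells, satellite glia, fibroblasts, endothelium and leukocytes were also detected, as a whole ganglion would hold, and each of the 37 markers reached 10 counts in each library. In such bulk tissue fewer cells of a type and less RNA per cell cannot be told apart.

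Vgf was the most abundant of the 4 transcripts. CFA replicate 1 held 994 Vgf counts and CFA replicate 2 held 2805, which are 94.5 CPM (95% interval 88.7 to 101, exact Poisson) and 97.3 CPM (93.7 to 101). The mean was 95.9 ± 2.0 CPM (SD, n = 2), and the intervals of the libraries overlapped. By mean CPM Vgf ranked 2326 of 21122 genes, with 89.0% of them lower, and its rank was 2353 in replicate 1 and 2282 in replicate 2. CPM does not correct for transcript length, and the lengths of these transcripts were not analysed here, so ranks and the order of genes describe reads and not molecules.

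Ccl2 gave 342 and 678 counts, or 32.5 CPM (29.2 to 36.1) in replicate 1 and 23.5 CPM (21.8 to 25.4) in replicate 2. Its mean of 28.0 ± 6.35 CPM had the widest relative spread of the 4 genes, with an SD of 22.7% of the mean. The counting intervals of the libraries did not overlap, and replicate 1 was the higher one. Ccl2 ranked 6538 by mean CPM, but 5990 in replicate 1 and 7147 in replicate 2.

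Reg3b had 234 and 558 counts, corresponding to 22.2 CPM (19.5 to 25.3) and 19.4 CPM (17.8 to 21.0). The libraries overlapped within counting error around a mean of 20.8 ± 2.04 CPM, at rank 7677. Reg3b thus lay above the median of 9.09 CPM over all genes with a count, as did Vgf and Ccl2. The members, like the markers, are in the study's list of genes that differ in both pain models. That list favours genes with counts in these libraries, so detection or a place above this median says little.

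Crh was the rarest of the 4, with 33 counts in replicate 1 and 112 in replicate 2. These gave 3.14 CPM (2.16 to 4.41) and 3.89 CPM (3.20 to 4.68), with a mean of 3.51 ± 0.529 CPM at rank 12886. It was the only member under the median gene, with 39.0% of the genes lower. In both libraries it stood above the level that 3 counts give, 0.285 CPM in replicate 1 and 0.104 CPM in replicate 2, so it was detected in each rat, and its level in replicate 1 is known only within a wide interval. These intervals cover counting error alone.

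**Figure D1:**
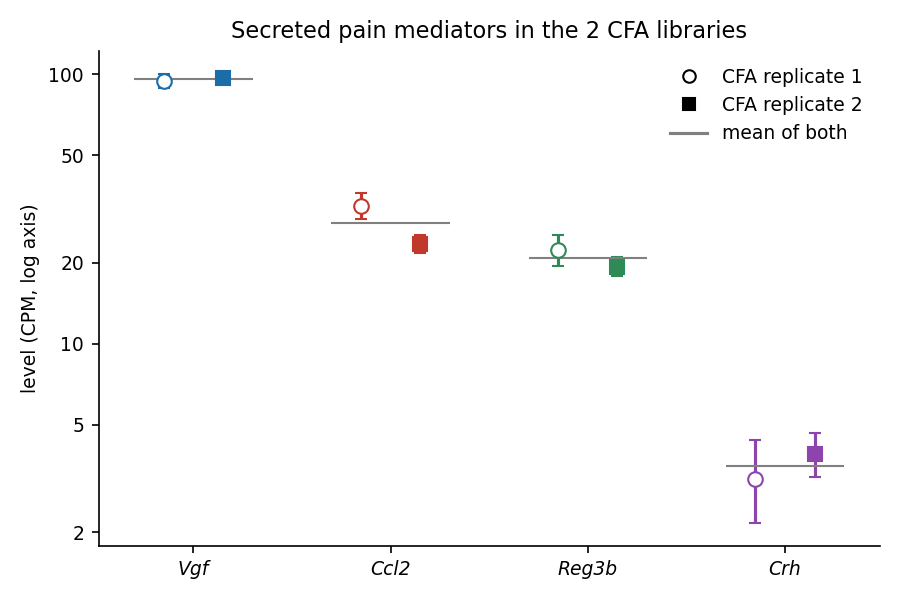
Level of each mediator in CPM on a log axis, with open circles for CFA replicate 1, filled squares for CFA replicate 2, error bars for the exact 95% Poisson interval of the count and grey lines for the mean. The libraries sit together for Vgf, near 96 CPM, and apart for Ccl2, at 32.5 and 23.5 CPM.

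In both libraries the order by CPM was Vgf, Ccl2, Reg3b and Crh. The ranges of the libraries did not overlap between any neighbours in this order, though for Ccl2 and Reg3b they came close, since the lower Ccl2 value of 23.5 CPM was just above the higher Reg3b value of 22.2 CPM. Vgf had 3.42 times the mean CPM of Ccl2, Ccl2 1.35 times that of Reg3b and Reg3b 5.92 times that of Crh. Together the 4 genes took 1603 counts in replicate 1 and 4153 in replicate 2, which are 0.0152% and 0.0144% of the counts on genes. Vgf supplied 62.0% and 67.5% of these member counts.

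**Figure D2:**
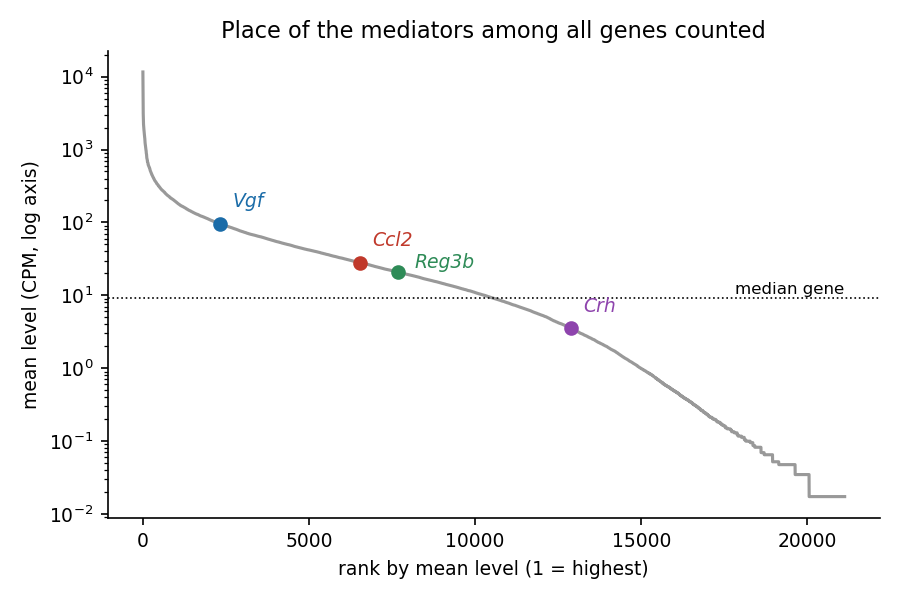
Mean CPM on a log axis against rank for the 21122 genes with a count in either CFA library (grey line), with the mediators as coloured points and the median gene, at 9.09 CPM, as a dotted line. Vgf lies at rank 2326 on the upper shoulder, Ccl2 and Reg3b in the middle at ranks 6538 and 7677, and Crh at rank 12886 below the median.

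The agreement of the 2 rats was expressed as the log2 ratio of the CPM in replicate 2 to that in replicate 1, with an exact 95% interval for counting error. It compares 2 libraries and not conditions. The log2 ratio was 0.04 for Vgf (-0.06 to 0.15), -0.47 for Ccl2 (-0.66 to -0.28), -0.20 for Reg3b (-0.42 to 0.03) and 0.31 for Crh (-0.26 to 0.92). None of the 4 members was beyond 0.5 in size, against 7.75% of the 15115 genes that reached 10 counts in each library (5.1% below -0.5 and 2.65% above 0.5), and 1.8% to 18.0% of the 500 genes nearest in rank to each member. The interval excluded a ratio of 1 for 1 member, Ccl2, whose level in replicate 2 was 0.724 times that in replicate 1, and it did so for 25.6% of the 15115 genes. For Vgf, a library difference beyond 0.15 in size on the log2 scale lay outside the interval, while for Crh the interval still held a 1.89-fold higher level in replicate 2.

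The same ratios were set beside genes of like abundance, as a description over genes, which are not replicates. Among the 500 genes nearest to Ccl2 in rank, at 26.4 to 29.9 CPM, the median size of the log2 ratio was 0.10, and 4.4% had a ratio as large as that of Ccl2. Around Vgf, at 87.6 to 106 CPM, 73.0% of 500 genes had a ratio at least as large, so Vgf matched between the rats as well as or better than most genes of its level. For Reg3b this share was 27.2%. Around Crh, at 3.08 to 3.97 CPM, the median size was 0.25 and 40.4% of genes differed at least as much, so its difference of 0.31 was ordinary for genes with so few counts.

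**Figure D3:**
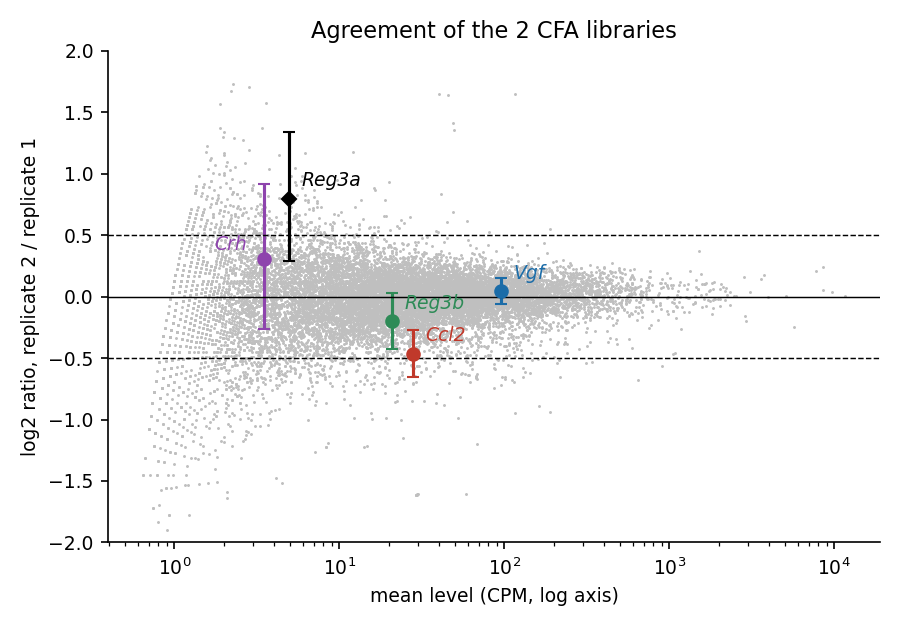
Log2 ratio of CFA replicate 2 to replicate 1 against mean CPM (log axis) for genes that reached 10 counts in each library (grey, with 8 genes beyond the axis), with the mediators coloured, Reg3a as a black diamond, exact 95% counting intervals as bars and dashed lines at 0.5 and -0.5. Vgf sits at 0.04 in the narrow part of the cloud, Ccl2 near its lower edge at -0.47, and Reg3a above 0.5.

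The number of reads of one mediator per read of another does not depend on how a library is scaled, and transcript length cancels when the libraries are compared. There were 2.91 Vgf counts per Ccl2 count in replicate 1 (2.57 to 3.30, exact binomial) and 4.14 in replicate 2 (3.80 to 4.51), so the balance of the peptide precursor and the chemokine differed between the rats by more than counting error. For Vgf and Reg3b the ratio was 4.25 (3.68 to 4.92) and 5.03 (4.59 to 5.51), with overlapping intervals. There were 1.46 Ccl2 counts per Reg3b count in replicate 1 and 1.22 in replicate 2, and 7.09 and 4.98 Reg3b counts per Crh count. The intervals overlapped between the libraries for both of these pairs, as they did for Vgf and Crh and for Ccl2 and Crh.

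Reg3a, of the same gene family as Reg3b, had 38 and 181 counts, or 3.61 and 6.28 CPM, with a mean of 4.95 ± 1.89 CPM. Its log2 ratio of 0.80 (0.29 to 1.34) put replicate 2 above replicate 1, while the Reg3b value was lower in replicate 2, with an interval that held 0. Per Reg3a count there were 6.16 Reg3b counts in replicate 1 (4.36 to 8.92) and 3.08 in replicate 2 (2.60 to 3.67), and these intervals did not overlap. Reads from members of a family with similar sequences can be split or lost in counting, which was not measured here, so the levels of Reg3b and Reg3a are uncertain in a way that the intervals do not cover, and the same may hold for Ccl2 among the chemokines. The kit kept the strand of the RNA, but the strand setting of the counting is not given in the sources used here, so reads of overlapping antisense transcripts could be included for any of the 4 genes.

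Vgf, Crh and the peptide systems of the ganglion share the regulated secretory pathway, and its genes were measured in the same libraries. The listed genes come from the study's table of genes that differ in both pain models, the only source of symbols here, so these lists are not a complete account of the pathways. All 10 dense-core vesicle genes reached 10 counts in each library, and their mean levels lay between 79.4 and 452 CPM around a median of 215 CPM. Among them were the granins Scg2 at 359 ± 1.98 CPM and Chgb at 177 ± 1.85 CPM, the prohormone convertases Pcsk1 at 122 ± 9.89 CPM and Pcsk2 at 139 ± 7.28 CPM, which cut peptide precursors, and carboxypeptidase E, Cpe, at 452 ± 7.86 CPM, which trims the cut ends (each n = 2). Their median log2 ratio was 0.02, against -0.01 over the 15115 genes, and none of the 10 was beyond 0.5, which was rare at these levels, at 0.4% to 1.4% of the 500 genes nearest in rank to each. The interval excluded 0 for 4 of the 10, Pcsk1, Pcsk2, Cadps and Scg3, and all 4 were higher in replicate 2. It did so for 25.6% of the 15115 genes, but these include genes with far fewer counts and wider intervals. Among the 500 genes nearest in rank to each of the 4, 19.0% to 60.0% had a ratio at least as large.

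The 7 neuropeptide and neurotrophin precursors spanned 5.11 to 1094 CPM, with 103 CPM as their median. Calca, the precursor of calcitonin gene-related peptide, reached 1094 ± 93.6 CPM, and Tac1, the precursor of substance P, 303 ± 0.108 CPM. Adcyap1, which encodes PACAP, at 103 ± 8.57 CPM and Bdnf, a neurotrophin, at 80.3 ± 5.33 CPM had CPM values around that of Vgf. The opioid precursor Penk, at 5.11 ± 0.772 CPM, and the natriuretic peptide precursor Nppa, at 5.74 ± 0.0769 CPM, were the rare transcripts of this list. Both had a higher CPM than Crh in each library. No gene of the list was beyond 0.5 in log2 ratio between the libraries, against 7.75% of the 15115 genes. Among the 500 genes nearest in rank, this share was only 0.4% to 1.8% around Tac1, Calca, Calcb, Adcyap1 and Bdnf. It was 13.6% around Penk and 10.4% around Nppa. The interval excluded 0 for 4 of the 7, with Calca, Calcb and Bdnf lower and Adcyap1 higher in replicate 2. These 4 had 884 to 12210 counts in replicate 1, which makes the interval narrow. The 25.6% over genes of all levels is therefore no background for them. Among the 500 genes nearest in rank to each, 13.8% to 28.4% had a ratio at least as large.

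Ccl2 was the only chemokine gene with a symbol here. Of 20 other secreted cytokines and growth factors, 18 reached 10 counts in each library, and the list spanned 0.554 to 1074 CPM, with 11.8 CPM as its median. Spp1, which encodes osteopontin, had 1074 ± 8.56 CPM, Kitlg, the ligand of the receptor KIT, 170 ± 19.3 CPM, and the alarmin Il33 74.8 ± 9.66 CPM. Il15 and the IL-6 family cytokine Clcf1 stayed under 1 CPM in both libraries. A log2 ratio beyond 0.5 was found for 3 of the 20 genes, against 7.75% of the 15115 genes. They were Edn3, Alkal2 and Clcf1, of which Clcf1, with 8 and 10 counts, lies outside that background. Il15, with 8 and 24 counts, lies outside it too. Among the 500 genes nearest in rank, 18.2% around Edn3 and 4.8% around Alkal2 were beyond 0.5. The interval excluded 0 for 5 of the 20, against 25.6% over genes of all levels. Il16, Il33, Kitlg and Alkal2 were higher in replicate 2 and Mdk was lower. The largest of these ratios was that of Alkal2, at 0.57 (0.29 to 0.85). Among the 500 genes nearest in rank to each of the 5, 2.0% to 15.0% had a ratio at least as large.

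Cell markers were compared between the libraries, since Ccl2 can be made by neurons, glia, stromal cells and leukocytes. The summed level of the 6 nociceptor markers was 3776 CPM in each library, with a log2 ratio of 0.00 at 2 decimals. Prph alone gave 2037 and 2006 CPM of it. The interval excluded 0 for 4 of the 6, with Scn10a at 0.10, Scn11a at 0.11, Trpa1 at 0.14 and P2rx3 at -0.11. Among the 500 genes nearest in rank to each, 27.6% to 41.8% had a ratio at least as large. The 3 neurofilament genes were all higher in replicate 2, and the interval excluded 0 for 2, Nefh at 0.21 and Nefl at 0.03. For these the share was 7.8% and 78.2%. The sum of the 9 leukocyte markers was 193 CPM in replicate 1 and 199 CPM in replicate 2, of which Lcp1 alone gave 147 and 150 CPM. Of these 9 markers 5 were higher and 4 lower in replicate 2, and the interval excluded 0 for C5ar1 alone, a complement receptor of myeloid cells, which was higher there at 0.69 (0.07 to 1.35). With C5ar1, 4 of the 9 were beyond 0.5 in size, against 7.75% of the 15115 genes. The others, Trem2 at -0.54, Siglec5 at -0.51 and Lilrb4 at -0.59, were lower in replicate 2. Their intervals held 0, and these 4 markers had 11 to 27 counts in replicate 1. Among the genes nearest in rank to each of the 4, 19.6% to 49.3% were beyond 0.5. The fibroblast sum was 1222 and 1144 CPM. The satellite glia sum was 1222 and 1182 CPM, of which S100b alone gave 1162 and 1127 CPM. Whether S100b marks satellite glia apart from Schwann cells was not tested, so this sum cannot be read as satellite glia alone. The interval lay under 0 for 3 of the 5 fibroblast markers, with Islr lowest at -0.36, while Pdgfrb was at 0.09 and Smoc2 at -0.01 with intervals that held 0. It lay under 0 for 2 of the 3 satellite glia markers, Gfap, the filament protein of reactive glia, at -0.56 (-0.81 to -0.32) and S100b at -0.04, while Gja1 was at 0.06 with an interval that held 0. All 5 endothelium markers were higher in replicate 2, with sums of 44.9 and 53.6 CPM. Their interval excluded 0 for 2 of the 5, Kdr and Sox17, and held 0 for Tie1, Erg and Robo4. Schwann cell and myelin markers summed to 3519 and 3339 CPM. The interval excluded 0 for 3 of the 6, with Mbp and Pmp2 lower and Ncmap higher in replicate 2. Among the 500 genes nearest in rank to each, 11.4% to 52.4% had a ratio at least as large. The part of these cells in the Ccl2 difference was not tested.

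**Figure D4:**
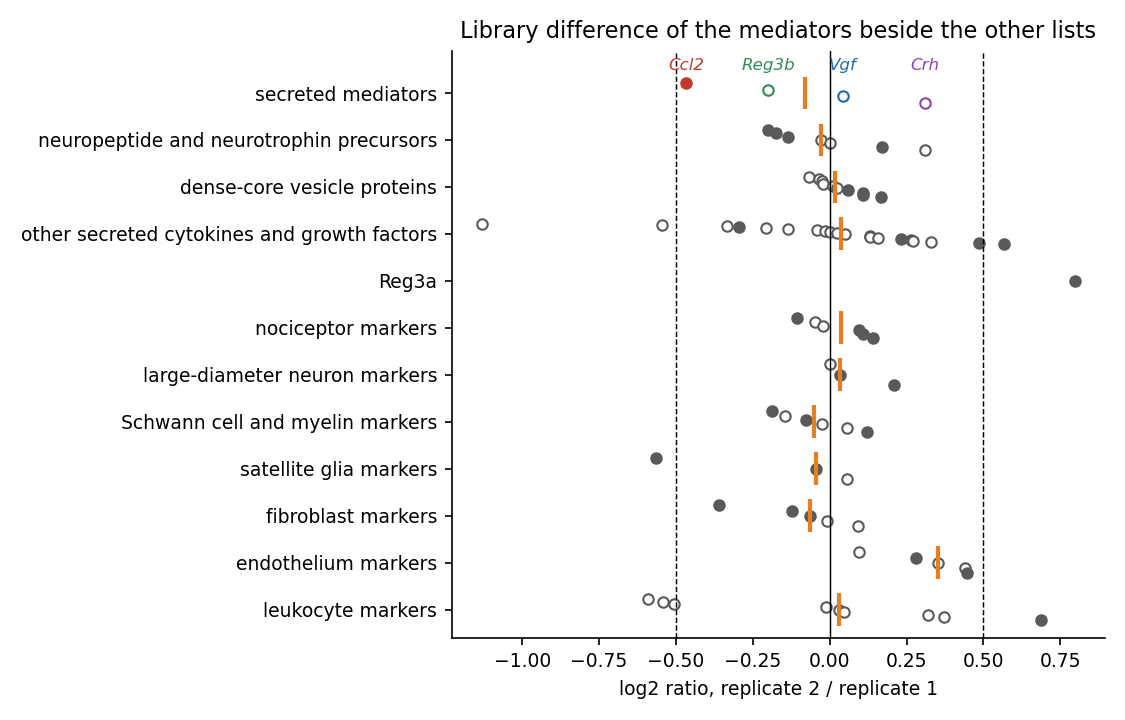
Log2 ratio of CFA replicate 2 to replicate 1 for each mediator (coloured, top row) and for each gene of the other lists (grey), with filled points where the exact 95% counting interval excludes 0, open points where it does not, orange bars at list medians and dashed lines at 0.5 and -0.5. Ccl2 is the only filled mediator, dense-core vesicle genes cluster around 0.02, and all endothelium markers lie right of 0, with 2 of the 5 filled.

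The genes most like each mediator were sought among 1865 other genes with a symbol, by distance in log2(CPM + 1) over the 2 libraries. With 2 libraries this finds genes of the same level and the same library difference, and it holds no further pattern. Txnip (96.6 ± 2.66 CPM), the nicotinic receptor subunit gene Chrnb2 and the proteoglycan gene Spock1 lay nearest to Vgf, at distances of 0.02 to 0.04. Bdkrb2, the gene of a bradykinin receptor, was nearest to Ccl2, with 31.6 CPM in replicate 1 and 24.7 CPM in replicate 2 and a distance of 0.08, followed by Aldh1a1 and Sytl3 at 0.12. Lpcat2, Arhgef37 and Sh3bp5 lay within 0.04 of Reg3b, and Ccdc17, Nrros and Polm within 0.08 of Crh.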

How the data were processed

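RNA-seq of 2 CFA libraries was analysed. The authors prepared stranded poly(A) libraries, mapped the reads with HISAT2 (build rn6), left out ribosomal RNA and deposited the raw count that featureCounts gave for each Ensembl gene. Versions of these tools are not given in the sources used here. Symbols were taken from the symbol column of a supplementary gene list of the study (1944 unique symbols), and no value of it was used. The other deposited tables hold normalized chromatin coverage without gene names and were not used here.

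Counts were divided by the library total (CPM), with exact Poisson intervals for a level and exact Clopper-Pearson intervals for a ratio of counts. With 1 condition no test was made. Alternatives were edgeR 4.0.16 TMM factors, DESeq2 1.42.0 size factors, the total without the 5 highest genes, pseudocounts and each library alone. The comparison with the 500 genes nearest in rank was chosen after seeing the data. The scripts were tested on simulated data. Members and lists were chosen with earlier results of these data known. Genes named are the members, the lists and the 3 nearest genes per member. R 4.3.3 and Python 3.11.15 were used.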

Additional observations from a re-analysis of the deposited data

How the results depend on the processing

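Levels, ranks, order and library ratios of the 4 mediators and the list medians were recomputed under other settings, and 48 of these values stayed within the spread of the libraries or their counting intervals while 2 moved further. Each library alone is left out of this count, since a mean of 2 libraries cannot move by more than their SD when 1 is dropped. Some of the 48 could not move either. A list median is fixed under the minimum of 10 counts where every listed gene reached it. No member could pass a threshold of 1 when none was beyond 0.5. The ranks of the 4 members were unchanged because the genes left out by that minimum all ranked lower. Leaving the 5 highest genes out of the library total raised the mean level of Vgf to 101 CPM, beyond its SD of 2.0 CPM, because the divisor is smaller, and keeping only genes that reached 10 counts in each library raised the median of the other secreted cytokines and growth factors to 13.7 CPM. The log2 ratio of Ccl2 was between -0.47 and -0.45 under every scaling and pseudocount tried, and that of Crh between 0.24 and 0.33. TMM and median-of-ratios scaling moved all log2 ratios by 0.02. The 4 genes kept their order in each library. The order per coding length was not run, because lengths were not analysed here. No paired analysis was possible because the RNA-seq libraries analysed here are of 1 group. With 1 rat per library and 2 libraries, an SD describes the spread of these rats only, and the depth of replicate 1 limits what can be said of Crh.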
